A study of Mus musculus with 12 samples.

Results

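The comparison described here is the effect of a methionine and choline deficient (MCD) diet on the liver transcriptome of wild-type (WT) mice. It rests on 6 of the 12 samples of the series, namely 3 livers of WT mice fed the MCD diet and 3 livers of WT mice fed chow, chosen by the genotype and diet that the labels give. The other 6 samples, 3 on each diet, come from Pctp-/- mice, which lack phosphatidylcholine transfer protein (PC-TP) in the whole body. Their diet effect is set beside that of WT mice. They also count in the minimum mean FPKM and in the estimate of spread behind each SE and p-value of the WT contrast. Each library is a whole liver of 1 male mouse, and no mouse is on both diets. The strain, age and time on diet of these mice are not given in the sources used here. Expression was measured by RNA-seq and is given as FPKM, the fragments of a gene relative to both its length and the mapped fragments of the library. Tests covered 12466 of 35275 genes, those whose FPKM averaged 0.5 or more across the 12 libraries.

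The MCD diet is a dietary model of steatohepatitis. Choline is needed to make phosphatidylcholine, the main phospholipid of very low density lipoprotein, and methionine is the source of S-adenosylmethionine, the methyl donor for the other hepatic route to phosphatidylcholine. Without both, the liver secretes less triglyceride and fat, inflammation and fibrosis build up, while the mice lose weight. Methionine is also an essential amino acid, and cells sense its lack through the kinase GCN2 and the transcription factor ATF4. In a whole liver sample, fewer cells of a type and less RNA per cell cannot be told apart.

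The chow and MCD libraries differed in read quality. Uniquely mapped reads numbered 31281322 to 55179468 on chow and 43123418 to 46246856 on MCD, so depth overlapped. Reads mapped uniquely made up 77.91 to 79.41% on chow against 85.69 to 87.55% in MCD libraries, the share mapped to several places 4.07 to 4.84% and 6.93 to 7.15%, and bases of quality 30 or better 86.29 to 86.67% and 93.54 to 94.19%, none of them overlapping. Each gives p = 0.1 in a two-sided exact permutation test, the smallest that 3 against 3 allows. Diet and library quality cannot be told apart in this design. GC content moved with the result as well. Among tested genes with a GC content of 18.1 to 44.8%, 10.5% rose and 2.29% fell by a large margin (an adjusted p under 0.05 and a log2 fold change of at least 1 in size), while at 54.3 to 83.3% GC 5.03% rose and 14.1% fell by one. The labelled tissue and sex held, since Alb, the gene of albumin, was at 26290 to 46335 FPKM in the 6 libraries, Xist was at 0.0181 to 0.0883 FPKM and the Y-linked gene Ddx3y at 10.7 to 17.4 FPKM. Pctp itself was measured at 2.25, 1.21 and 2.65 FPKM in WT livers on chow and at 7.9, 5.1 and 3.61 FPKM on MCD, a rise of 1.08 on the log2 scale (SE 0.23, adjusted p = 0.00152), and had group means of 0.42 and 0.259 FPKM in Pctp-/- livers on chow and MCD.

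A large part of the WT liver transcriptome differed between the MCD and chow livers. At a Benjamini-Hochberg adjusted p under 0.05 from limma, 7110 genes were called (57.0% of those tested), 4300 higher and 2810 lower on MCD. Because the small changes among these move with the scaling between libraries, large changes are given for most genes. There were 1777 of them (14.3% of genes tested), 988 higher (7.93%) and 789 lower on MCD (6.33%). The counts of each gene list below are to be read against these shares. All fold changes were taken on log2(FPKM + 1), where the added 1 makes the change of a weakly expressed gene look smaller. Over all genes tested the median log2 fold change was 0.11, and 0.01 after quantile normalization or median-of-ratios scaling. Quantile normalization gave 3706 calls up and 3478 down, and median-of-ratios scaling 3609 up and 3498 down. Of the large changes, 782 were up and 983 down under median-of-ratios scaling, and 702 up and 711 down after a correction for GC content and length. Of the genes tested, 7943 (63.7%) had WT groups that did not overlap.

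Changes of at least 4 on the log2 scale were found in 23 genes that rose and 6 that fell. The largest rise was that of Sult1e1, the estrogen sulfotransferase (chr5:87575969-87591594), which was at 0.0667, 0.119 and 0.102 FPKM on chow and at 210, 185 and 162 FPKM on MCD. Scd1 showed the largest fall. This gene, at chr19:44394455-44407879, encodes stearoyl-CoA desaturase, which makes monounsaturated fatty acids, and went from 1771, 1118 and 1187 FPKM on chow to 1.6, 1.54 and 2.01 FPKM on MCD, 792-fold lower. The log2 fold changes were 7.41 (SE 0.15, adjusted p = 4.1e-11) for Sult1e1 and -8.94 (SE 0.23, adjusted p = 3.1e-10) for Scd1. Next among the rises came Ly6d (6.87), Cyp3a44 (6.24), Fgf21 (6.23), Cyp2b9 (5.87), Cyp2a4 (5.77), Lcn2 (5.66), Cyp2a22 (5.50), Apcs (5.37), Apoa4 (5.32) and Cyp4a14 (5.27), given as log2 fold changes. Next among the falls came the pseudogene Serpina4-ps1 (-6.95, and -7.68 without the third chow liver), Mup9 (-4.85), the carboxylesterase gene Ces3b (-4.77), Mup3 (-4.66), the pyrimidine catabolism gene Dpys (-4.11), Susd4 (-3.94), the noncoding gene Gm26917 (-3.93), Mbl2 (-3.87), Mup21 (-3.66), Elovl3 (-3.64) and the antisense gene Gm12473 (-3.55). In each of these 23 genes the chow and MCD livers did not overlap, by the rule that chose them. Mup9 shares 86.4% of its 100-base words with other genes and Cyp2a4 shares 11%, so reads of their family members may be split between them, and Gm12473, Cyp2a4, Apoa4 and Elovl3 overlap genes on the other strand.

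**Figure D1:**
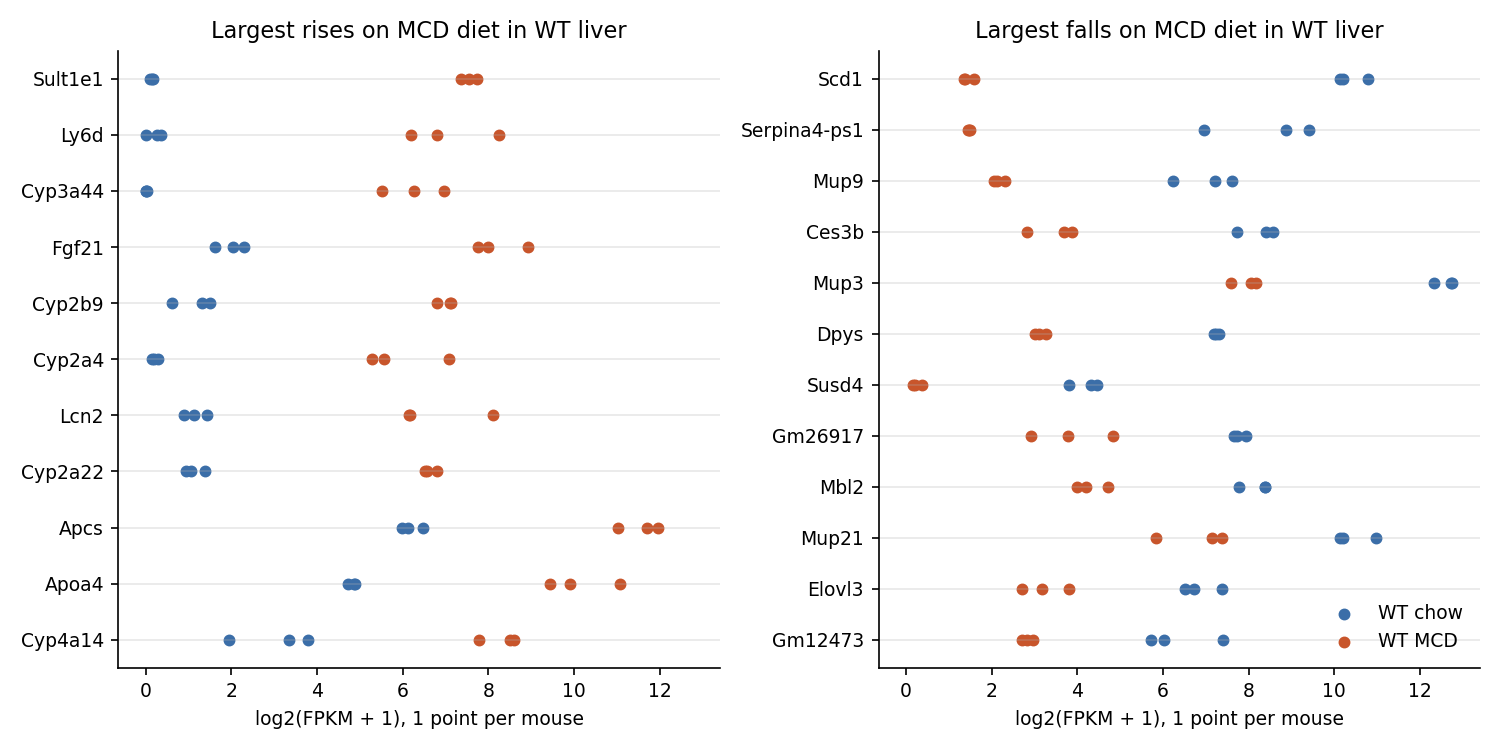
Level of 11 of the 12 genes with the largest rise (left) and of the 12 with the largest fall (right) on the MCD diet in WT liver, as log2(FPKM + 1), with 1 point per mouse, blue for chow and orange for MCD (3 mice each). The blue and orange points of each gene stand apart, and Scd1 spans the widest gap, from at least 1118 FPKM on chow to about 2 FPKM on MCD.

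Most genes of fatty acid synthesis fell. Of 23 tested genes of fatty acid synthesis, elongation and desaturation, 13 fell and 4 rose at an adjusted p under 0.05, while 57.0% of all genes tested were called. By a large margin 10 fell and 1 rose (47.8%, against 14.3% of all genes tested), with a median log2 fold change of -0.57. After Scd1 and Elovl3, the fall was largest in Srebf1, the gene of the transcription factor that drives lipogenesis. It was at 106, 103 and 134 FPKM on chow and at 19.4, 31.2 and 28.1 FPKM on MCD (log2 fold change -2.10, SE 0.22, adjusted p = 8.3e-06). Fasn, the fatty acid synthase, went from 68.8, 64.4 and 65.4 FPKM to 32, 23.9 and 21.7 FPKM, a fall of 1.34 on the log2 scale (SE 0.27, adjusted p = 0.00109), which was -0.65 with an adjusted p of 0.071 after a correction for GC content and length. The groups of these genes did not overlap. The list did not move as a block, since the elongase gene Elovl1 rose by 1.06, Elovl6 by 0.89 and Acaca, which encodes acetyl-CoA carboxylase 1, by 0.59, while Acly (-0.33) and Me1 (-0.17) did not pass the test.

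Several genes of fatty acid uptake and lipid droplets rose in the same livers. Of 44 tested genes, 19 rose and 14 fell at an adjusted p under 0.05, while 57.0% of all genes tested were called. By a large margin 13 of the 44 rose and 4 fell (38.6%, against 14.3% of all genes tested). The median of the list was 0.17, against 0.04 with median-of-ratios scaling and 0.09 with quantile normalization. Cd36, a fatty acid translocase of the plasma membrane, was at 2.55, 0.922 and 2.64 FPKM on chow and at 132, 78.1 and 82.9 FPKM on MCD (48-fold, log2 fold change 5.04, SE 0.34, adjusted p = 4.0e-07). Lpl, the lipoprotein lipase, is little expressed in adult hepatocytes, and went from 4.58, 3.36 and 2.19 FPKM to 66.8, 42 and 39.1 FPKM (log2 fold change 3.52, SE 0.32, adjusted p = 3.4e-06). Every MCD liver was thus above every chow liver for both. Cidec, a lipid droplet protein, rose by 2.91, G0s2, an inhibitor of adipose triglyceride lipase, by 2.40, and Plin2, the coat protein of hepatic droplets, by 1.08 from means of 223 to 473 FPKM. The falls were in Slc27a5 (-2.41), Lpin1 (-1.95), Fitm1 (-1.94) and Slc27a2 (-1.52), of which the Slc27 genes encode acyl-CoA synthetases and Lpin1 a phosphatidate phosphatase. Dgat1, which encodes an enzyme of the last step of triglyceride synthesis, did not pass (0.19), but did after a correction for GC content and length (0.30, adjusted p = 0.0312).

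Among 25 apolipoprotein and lipoprotein assembly genes, 2 rose and 3 fell by a large margin (20%, against 14.3% of all genes tested). Apoa4, an apolipoprotein of triglyceride-rich particles, was at 28.8, 25.5 and 28 FPKM on chow and at 2163, 965 and 693 FPKM on MCD. Apoc2, the cofactor of lipoprotein lipase, rose by 1.67, but shares 87.3% of its 100-base words with other genes. Mttp, which loads lipid onto apolipoprotein B, did not pass (log2 fold change -0.08, SE 0.12, adjusted p = 0.62). The falls were in Lrp1 (-1.89), Lipc (-1.54) and Lcat (-1.18).

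Fatty acid oxidation genes moved in both directions. Of 45 tested genes of fatty acid oxidation and ketogenesis, 5 rose and 7 fell by a large margin, with a median of -0.04. Cyp4a14, a microsomal omega-hydroxylase induced through PPAR alpha, was at 9.1, 2.87 and 12.8 FPKM on chow and at 220, 360 and 384 FPKM on MCD (log2 fold change 5.27, SE 0.59, adjusted p = 1.7e-05). Pdk4, a kinase that shuts pyruvate dehydrogenase, went from 0.881, 1.18 and 1.54 FPKM to 34.8, 24.8 and 13 FPKM (3.43, SE 0.36, adjusted p = 9.1e-06). Both are known targets of PPAR alpha, and every MCD liver was above every chow liver. Acaa1b, a peroxisomal thiolase, moved the other way, from 674, 582 and 785 FPKM to 160, 214 and 195 FPKM (log2 fold change -1.84, SE 0.23, adjusted p = 3.5e-05), and shares 22.6% of its words with other genes. Cytosolic acyl-CoA thioesterase Acot1 was 9.96-fold lower. The mitochondrial carnitine palmitoyltransferase Cpt1a did not pass (0.26, adjusted p = 0.159).

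Of 45 tested PPAR alpha targets, a list that shares genes with the last, 14 rose and 5 fell by a large margin (median 0.11, and -0.02 after median-of-ratios scaling). Beside the genes already named, the pantetheinase gene Vnn1 rose by 3.25, while Fgf1 fell by 1.02. Ppard, the gene of PPAR delta, was at 3.03, 3.78 and 3.38 FPKM on chow and at 1.96, 1.24 and 1.24 FPKM on MCD, a fall of 0.84 on the log2 scale (SE 0.15, adjusted p = 6.5e-04). Pparg did not pass (0.16).

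The enzymes that handle methionine and methyl groups were reordered. Of 33 tested genes of the methionine cycle, one-carbon metabolism and transsulfuration, 4 rose and 8 fell by a large margin. Mat2a, which encodes the S-adenosylmethionine synthetase subunit of extrahepatic and dividing cells, was at 27.1, 28.3 and 26.4 FPKM on chow and at 186, 156 and 148 FPKM on MCD (5.99-fold, log2 fold change 2.53, SE 0.13, adjusted p = 5.0e-08). The form of adult hepatocytes, Mat1a, was at 665, 828 and 741 FPKM and at 569, 776 and 825 FPKM, with overlapping groups (log2 fold change -0.05, SE 0.15, adjusted p = 0.771). Bhmt, which remethylates homocysteine to methionine with betaine, rose by 1.41 from a mean of 268 to 707 FPKM. Several enzymes that use methyl groups or break down methylated glycine were lower. Gnmt, the glycine N-methyltransferase that disposes of excess S-adenosylmethionine, went from 1541, 1787 and 1530 FPKM to 451, 848 and 729 FPKM (log2 fold change -1.30, SE 0.19, adjusted p = 1.3e-04). Gamt, the methyltransferase of creatine synthesis, fell by 1.58. Sardh, the sarcosine dehydrogenase, fell by 1.56 and the sarcosine and pipecolate oxidase gene Pipox fell by 3.46, 11.5-fold lower by its mean FPKM. Ahcy fell by 1.58, though it shares 71.8% of its words with other genes. In transsulfuration, Cbs fell by 0.77, while Cth, which encodes the next enzyme, did not pass (-0.01). Others rose, among them Nnmt, a methyltransferase of nicotinamide, by 1.72 and Dmgdh, which breaks down dimethylglycine, by 0.91.

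Choline and phosphatidylcholine genes changed little by comparison. Of 24 listed genes 23 were tested, and none of them changed by a large margin, while 8 rose and 6 fell at an adjusted p under 0.05, a share near the 57.0% of all genes tested. Pemt, which makes phosphatidylcholine by methylating phosphatidylethanolamine, was at 282, 404 and 358 FPKM on chow and at 482, 582 and 546 FPKM on MCD (log2 fold change 0.64, SE 0.13, adjusted p = 0.00119). Cept1, a choline and ethanolamine phosphotransferase, rose by 0.74, and by 0.20 with an adjusted p of 0.0581 after the correction for GC content and length. Pcyt2, which activates ethanolamine for the parallel pathway, went from 395, 433 and 444 FPKM to 211, 265 and 224 FPKM (-0.87, SE 0.15, adjusted p = 4.1e-04). For each of these the groups did not overlap. Chka, a choline kinase, did not pass (0.45, adjusted p = 0.229), nor did the choline transporter gene Slc44a2 (0.22). The median of the list was 0.09, and -0.04 after median-of-ratios scaling.

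**Figure D2:**
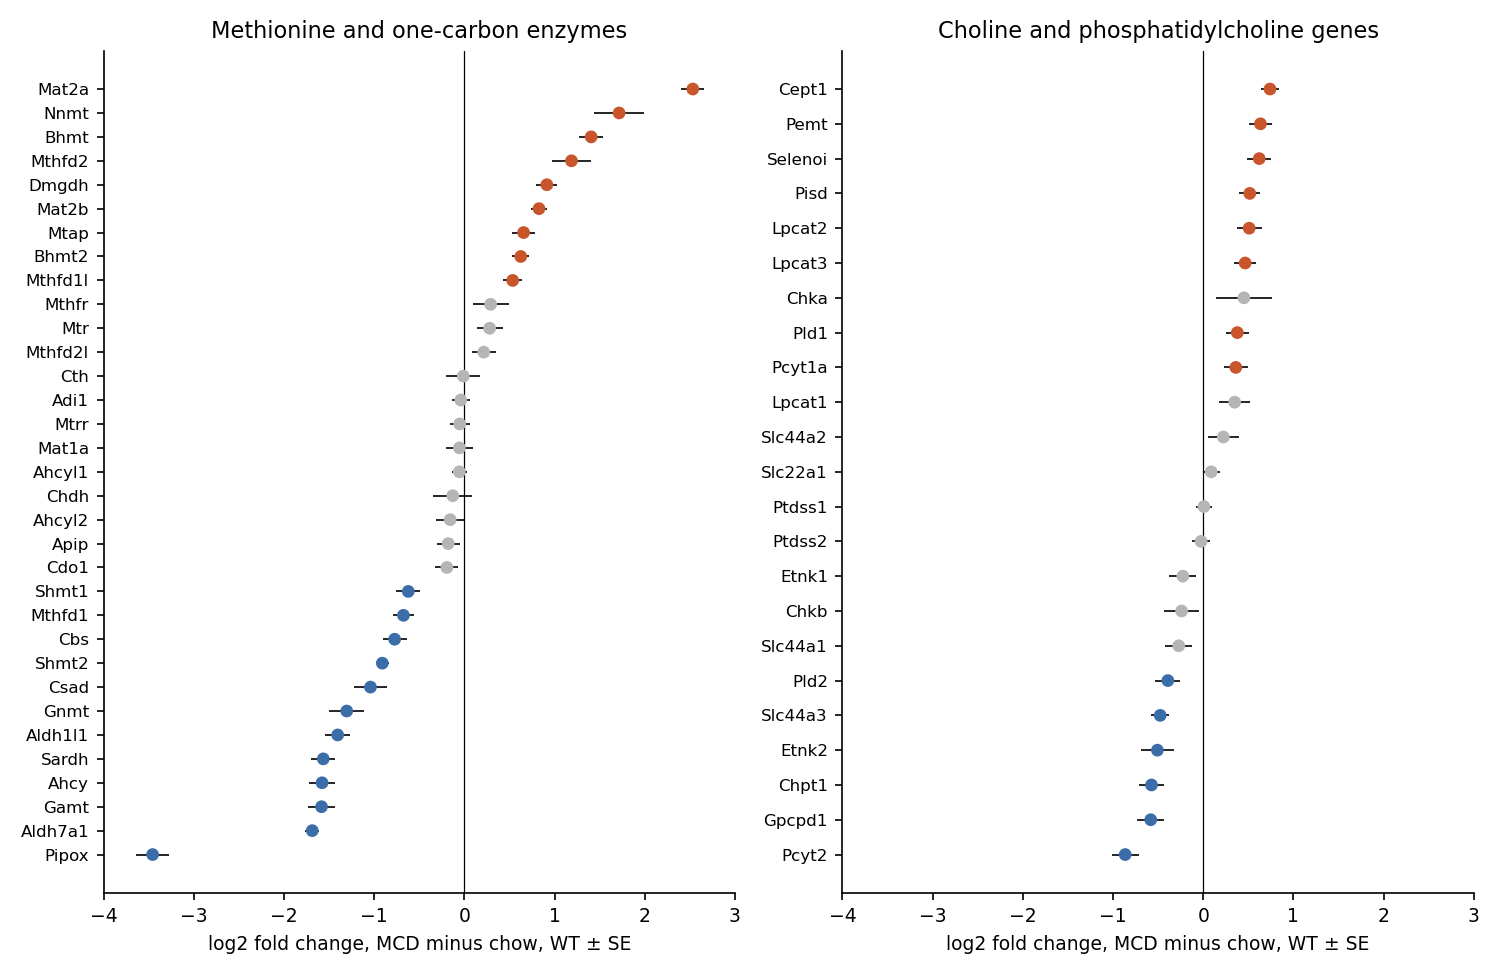
Log2 fold change (MCD minus chow, WT liver, on log2(FPKM + 1)) of the 33 tested methionine and one-carbon genes (left) and the 23 tested choline and phosphatidylcholine genes (right), with 1 SE as a bar, orange for called rises, blue for called falls and grey for genes that did not pass. The left panel runs from Pipox at -3.46 to Mat2a at 2.53, and every gene on the right lies between -0.87 and 0.74.

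Genes of the amino acid stress response to ATF4 rose. Of 36 listed genes 31 were tested, of which 10 rose and 2 fell by a large margin (median 0.77). ATF4 binds, with a C/EBP partner, an element written here as TGATGNAAN, and 10 of the 26 promoters of these genes in the RefSeq table held it on either strand (38.5%), against 198 of 9282 promoters of tested genes (2.13%). The promoters were windows from 250 bases before to 50 after the start site, and a match is a description of sequence only. The 10 were those of Atf3, Asns, Chac1, Trib3, Pck2, Aars, Gars, Nupr1, Herpud1 and Fgf21. Of these, 6 rose (Fgf21, Nupr1, Asns, Trib3, Pck2 and Gars), 1 fell (Herpud1) and Atf3 (1.04), Chac1 (1.04) and Aars (-0.18) did not pass. Atf3 passed without the third chow liver (1.52, adjusted p = 0.0413), and Chac1 without the second chow liver (1.33, adjusted p = 0.0296), without the third MCD liver (1.30, adjusted p = 0.0342), with the replicate number as a block (1.04, adjusted p = 0.00797), after the correction for GC content and length (1.15, adjusted p = 0.034) or with a pseudocount of 5 (0.63, adjusted p = 0.0316). The 250 bases before the start sites of the 3 that rose most are given 5′ to 3′ on the strand of the gene, from RefSeq on GRCm38.p6, with the matches in capitals.
Fgf21, chr7:45615491-45615740, minus strand: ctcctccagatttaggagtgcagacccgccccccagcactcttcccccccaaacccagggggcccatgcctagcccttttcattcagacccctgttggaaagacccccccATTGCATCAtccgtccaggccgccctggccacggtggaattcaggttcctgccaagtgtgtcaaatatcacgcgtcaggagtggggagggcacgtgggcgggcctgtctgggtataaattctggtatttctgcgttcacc
Nupr1, chr7:126625471-126625720, minus strand: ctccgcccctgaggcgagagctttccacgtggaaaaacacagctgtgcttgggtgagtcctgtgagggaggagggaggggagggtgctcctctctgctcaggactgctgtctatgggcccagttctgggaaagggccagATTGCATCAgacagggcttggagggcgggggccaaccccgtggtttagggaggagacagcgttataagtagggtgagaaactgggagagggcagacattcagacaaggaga
Asns, chr6:7693210-7693459, minus strand: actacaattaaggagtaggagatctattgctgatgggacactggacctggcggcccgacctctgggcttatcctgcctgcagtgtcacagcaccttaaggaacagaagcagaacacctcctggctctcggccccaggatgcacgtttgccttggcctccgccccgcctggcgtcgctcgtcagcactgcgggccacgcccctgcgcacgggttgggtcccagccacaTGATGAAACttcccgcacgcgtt

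The match in Fgf21 begins 140 bases before the start site, that in Nupr1 111 and that in Asns 23. Fgf21 encodes a fasting and stress hormone secreted by the liver, and was at 3.93, 2.09 and 3.12 FPKM on chow and at 253, 485 and 215 FPKM on MCD (log2 fold change 6.23, SE 0.39, adjusted p = 2.2e-07). Asns, the asparagine synthetase and a classical ATF4 target, went from 0.0834, 0.148 and 0.0959 FPKM to 13.3, 8.92 and 7.17 FPKM (3.24, SE 0.17, adjusted p = 7.3e-08). Nupr1, a stress-induced chromatin protein, went from 0.12, 0.122 and 0.237 FPKM to 29.5, 22.2 and 10.3 FPKM. On chow, Asns and Nupr1 were thus near the lower limit of the measurement, and all MCD livers were far above. Both were under the minimum mean FPKM in every WT chow liver, so the counts of the ATF4 list are a description as well. Ddit4, an inhibitor of mTORC1, rose by 4.07, the serine synthesis gene Psat1 by 2.38, Atf5 by 2.19, the pseudokinase gene Trib3 by 2.12 and Ddit3, the gene of CHOP, by 2.05. Atf4 itself was at 54.7, 44.3 and 34.2 FPKM on chow and at 112, 118 and 108 FPKM on MCD (1.35, SE 0.16, adjusted p = 2.4e-05). Not all of the list followed, since the growth differentiation factor gene Gdf15 did not pass (-0.41, adjusted p = 0.486) and Cebpb fell by 2.40, from 149, 125 and 165 FPKM to 28.8, 24.7 and 26.7 FPKM. Endoplasmic reticulum chaperones and unfolded protein response genes were divided, 3 of 31 rising and 3 falling by a large margin (19.4%, against 14.3% of all genes tested), with a median of 0.08 that was -0.06 after median-of-ratios scaling. Hspa5, the chaperone BiP, did not pass (0.33), while Herpud1 fell by 1.67 and Sdf2l1 fell by 1.54. Among 27 hepatokines, 6 rose and 2 fell by a large margin, Lect2 (2.05) and Igfbp1 (1.76) coming after Fgf21.

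Genes that are typical of male liver fell and genes typical of female liver rose, in mice that were all male. Sex differences in mouse liver are set by the pattern of growth hormone secretion, pulsatile in males and near continuous in females. Of 35 listed male-typical genes 33 were tested, of which 28 fell and none rose by a large margin (median -1.99). Of 33 listed female-typical genes 26 were tested, of which 19 rose and none fell by a large margin (median 2.07). The female-typical genes are low or absent on chow in males, so those that reached the minimum mean FPKM did so mainly through the MCD groups, and their count is no more than a description. Among the male-typical genes, Mup3, one of the major urinary proteins that males excrete as scent signals, was at 5118, 6933 and 6722 FPKM on chow and at 191, 264 and 286 FPKM on MCD, 25.3-fold lower (log2 fold change -4.66, SE 0.15, adjusted p = 2.6e-09). The 21 Mup genes in the table summed to 6776 to 9770 FPKM on chow and to 436 to 656 FPKM in MCD livers, or 1.46 to 1.94% and 0.0854 to 0.123% of all FPKM in a library. The sum is not changed by a split of reads among near-identical Mup genes. How reads mapped to several places were counted is not given in the sources used here. Mup3, which shares 2.2% of its words with other genes, had a mean of 6258 FPKM of the mean sum of 8427 FPKM on chow. Mup2 (-0.00) and Mup14 (0.36) did not pass, though Mup14 did without the third chow liver (0.61, adjusted p = 0.0109) and Mup2 fell after the correction for GC content and length (-0.54, adjusted p = 0.0323). Elovl3, a male-typical elongase of very long fatty acids, went from 165, 90.5 and 105 FPKM to 5.55, 8.1 and 13 FPKM, and Susd4, a complement regulator, from 19, 20.9 and 12.9 FPKM to 0.298, 0.152 and 0.123 FPKM. The oxysterol hydroxylase gene Cyp7b1 (-3.06) and the complement gene C6 (-3.53) fell too.

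On the female side, Cyp2b9 was at 1.5, 0.518 and 1.82 FPKM on chow and at 110, 136 and 139 FPKM on MCD (log2 fold change 5.87, SE 0.51, adjusted p = 2.5e-06). Cyp3a44 was at 0.0214 FPKM in 1 chow liver, listed at 0 in the other two, and at 44.5, 76.1 and 124 FPKM on MCD. For both the MCD livers stood apart from the chow livers. Cyp2a4 (5.77), Cyp2b13 (4.64), the transporter gene Slc22a27 (4.14) and the constitutive androstane receptor target Cyp2b10 (2.09) followed.

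**Figure D3:**
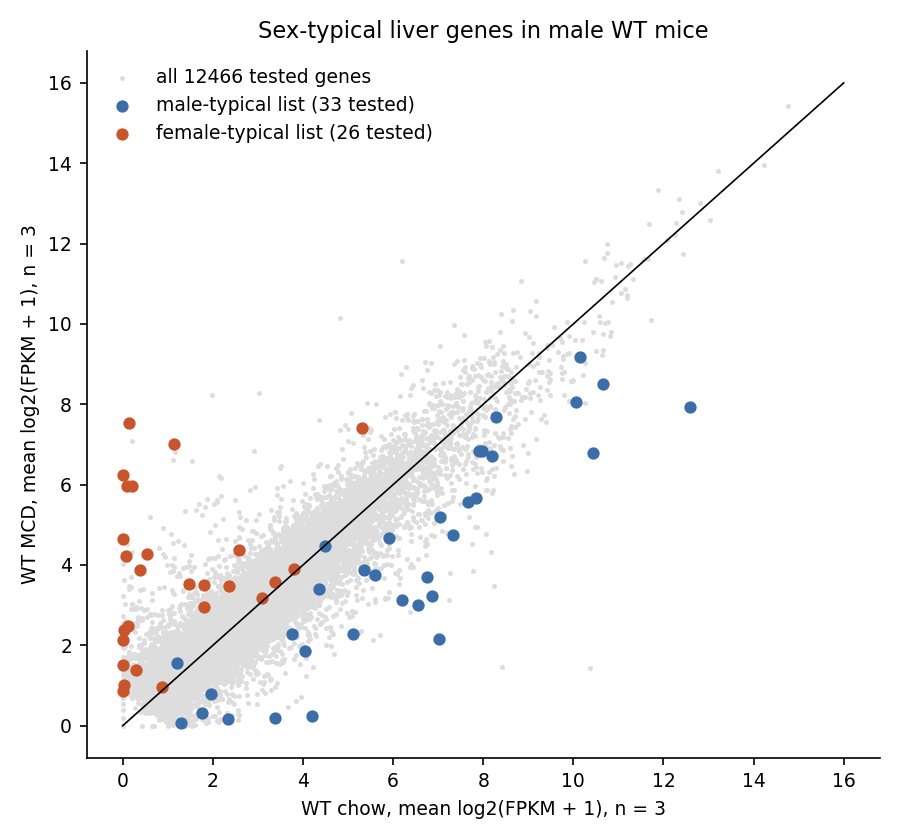
Mean log2(FPKM + 1) of 3 WT livers on chow (x) against 3 WT livers on MCD (y) for all tested genes (grey), the male-typical list (blue, 33 tested) and the female-typical list (orange, 26 tested), with the line of equal level. Of the blue points, 28 are large falls below the line, and 19 of the orange points are large rises above it.

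Of 17 tested genes of the growth hormone and IGF axis, 6 fell and 1 rose by a large margin (median -0.90). The growth hormone receptor gene Ghr went from 155, 135 and 135 FPKM to 77.5, 74 and 74 FPKM (log2 fold change -0.90, SE 0.08, adjusted p = 3.0e-06). Igf1, the main endocrine product of the axis, went from 85.6, 98.2 and 74.6 FPKM to 43.5, 40.2 and 49.3 FPKM (-0.94, SE 0.13, adjusted p = 6.8e-05), and Igfals, which carries IGF1 in blood, fell by 1.61. The groups did not overlap for any of the 3. Igfbp1, a binding protein raised in fasting, rose by 1.76, from 21.3, 112 and 113 FPKM to 244, 313 and 145 FPKM. Its call was lost without the first chow liver (0.98, adjusted p = 0.108), the first MCD liver (1.70, adjusted p = 0.0655) or the second MCD liver (1.52, adjusted p = 0.0848), after the correction for GC content and length (1.53, adjusted p = 0.0586) and with no filter on low values (1.76, adjusted p = 0.0623). Among the direct targets of STAT5, Socs2 varied too widely on chow (13.7, 25 and 2.05 FPKM) to pass (-1.15, adjusted p = 0.132), and without the third chow liver it fell by 2.04 (adjusted p = 0.0017). Egfr, which hepatocytes express at high level, fell by 2.71. Bcl6, a repressor of female-typical genes, did not pass (0.03, adjusted p = 0.924).

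Most cholesterol synthesis genes rose. Of 26 tested cholesterol synthesis genes and SREBP2 targets, 17 rose and 2 fell at an adjusted p under 0.05. Among all genes tested 57.0% were called and 14.3% changed by a large margin. In this list 7 rose and 1 fell by a large margin (30.8%, median 0.57). Of 18 with a promoter in the table, 16 held a CCAAT box on either strand (88.9%), the site of NF-Y, which works beside SREBP2, against 3565 of 9282 tested promoters (38.4%). The share was 84% of 25 in the endoplasmic reticulum chaperone list as well, so it is not particular to sterol genes. The sterol element, written here as TCACNCCAC, was in 1 of the 18 (5.56%), that of Hmgcs1, against 106 of 9282 tested promoters (1.14%). It is not marked in the sequences below. A pair of promoters that rose is given in the same way, 250 bases before the start site with CCAAT or its complement in capitals.
Hmgcs1, chr13:119690101-119690350, plus strand: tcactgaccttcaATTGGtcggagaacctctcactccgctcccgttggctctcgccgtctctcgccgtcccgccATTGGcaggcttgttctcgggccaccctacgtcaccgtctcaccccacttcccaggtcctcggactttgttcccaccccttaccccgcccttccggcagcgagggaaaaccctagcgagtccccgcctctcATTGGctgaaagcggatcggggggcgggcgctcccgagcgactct
Msmo1, chr8:64733579-64733828, minus strand: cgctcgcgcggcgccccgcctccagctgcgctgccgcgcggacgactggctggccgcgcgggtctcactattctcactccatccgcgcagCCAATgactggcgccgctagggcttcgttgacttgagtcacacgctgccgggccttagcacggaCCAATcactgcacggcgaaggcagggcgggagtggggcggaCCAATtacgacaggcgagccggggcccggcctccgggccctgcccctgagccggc

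Each of these windows held 3 matches. Hmgcs1, the HMG-CoA synthase of the cytosol, was at 61.9, 51.1 and 53.4 FPKM on chow and at 337, 180 and 140 FPKM on MCD (log2 fold change 1.86, SE 0.30, adjusted p = 2.7e-04). Msmo1, a sterol methyl oxidase, went from 24.9, 26.7 and 25.4 FPKM to 111, 81.7 and 67.5 FPKM (1.69, SE 0.20, adjusted p = 2.1e-05). Idi1 (1.83), Sqle (1.75) and Fdft1 (1.33) rose too. In Hmgcs1, Msmo1, Idi1 and Sqle the first MCD liver was the highest of the 3. Tm7sf2, a sterol reductase, fell from 105, 117 and 102 FPKM to 20.2, 26.4 and 20.4 FPKM.

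Bile acid genes fell more often than they rose. Of 34 tested, 9 fell and 5 rose by a large margin. The lower genes cover both synthesis, with Cyp7b1 (-3.06), Cyp27a1 (-1.88) and Cyp8b1 (-1.23), and uptake, with Slc10a1, the sodium-dependent bile acid transporter (-1.79). Cyp7a1, the rate-limiting enzyme of the classical route, was at 40.9, 61.6 and 9.19 FPKM on chow and at 71.9, 55.1 and 37.3 FPKM on MCD and did not pass (0.85, adjusted p = 0.179), but did without the second chow liver (1.38, adjusted p = 0.0354). The oxysterol hydroxylase gene Cyp39a1 rose from 1.78, 0.93 and 1.41 FPKM to 18.7, 24.8 and 26.2 FPKM (3.35, SE 0.19, adjusted p = 1.1e-07), and Slc51b, a subunit of the basolateral exporter OST, rose by 2.30, whereas Abcc3, of another exporter, fell by 2.07.

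Markers of injured hepatocytes rose. Of 24 listed injury and fetal genes 18 were tested, of which 14 rose and none fell by a large margin (median 1.47). Like the macrophage markers that follow, some are near 0 on chow and reached the minimum mean FPKM through the MCD groups, so both counts are descriptions. Ly6d, a surface protein of epithelial cells, was at 0.283 and 0.201 FPKM in 2 chow livers, listed at 0 in the other, and at 305, 110 and 71.8 FPKM on MCD. Lcn2, lipocalin 2, an acute-phase protein released by injured hepatocytes and neutrophils, went from 1.71, 0.87 and 1.17 FPKM to 277, 70.9 and 69.9 FPKM. The annexin gene Anxa5 rose by 3.91, Anxa2 by 3.78 and the fetal gene Afp by 2.53, from 1.01, 0.895 and 0.803 FPKM to 19.9, 7.45 and 6.52 FPKM. In all 5 the first MCD liver was the highest, and without it the log2 fold change of Ly6d was 6.28 and Lcn2 stayed past the threshold (adjusted p = 3.3e-07). Krt8, a keratin of hepatocytes, rose by 1.45, while the fetal gene Gpc3 did not pass (-0.17), but fell after the correction for GC content and length (-0.43, adjusted p = 0.0194).

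The macrophage list rose as well. Of 31 tested markers of macrophages and Kupffer cells, 22 rose and none fell by a large margin (median 1.40). The 32 listed markers summed to 168 to 304 FPKM on chow and 632 to 1311 FPKM in MCD livers. Gpnmb and Mmp12, markers of lipid-associated macrophages, were near 0 on chow and at 69.9, 14.2 and 16.5 FPKM and at 52.9, 12.1 and 16.7 FPKM on MCD. Lgals3, galectin 3, went from 2.04, 1.32 and 1.5 FPKM to 82.5, 24.5 and 30.8 FPKM (log2 fold change 3.97, SE 0.36, adjusted p = 3.1e-06). The first MCD liver was again the highest of its group for these 3, and without it Gpnmb was at 3.96 and Mmp12 at 3.84 on the log2 scale, from 4.67 and 4.45. Clec4f, a marker of resident Kupffer cells, rose by 0.92. Cd163, another such marker, did not pass (-0.33), but did without the third MCD liver (-0.62, adjusted p = 0.0288). These 2 genes do not stand for the list, in which 29 of 31 rose and none fell at an adjusted p under 0.05. The call of Clec4f was lost without the second chow liver (0.73, adjusted p = 0.0999) or the third MCD liver (0.63, adjusted p = 0.112), after median-of-ratios scaling (0.79, adjusted p = 0.0559) and with no filter on low values (0.92, adjusted p = 0.0573). The neutrophil genes S100a8 (3.26) and S100a9 (3.00) and the leukocyte gene Ptprc (1.36) were the 3 large rises among 11 tested lymphocyte and neutrophil markers. The 28 listed markers summed to 20.6 to 25.8 FPKM on chow against 50.5 to 53.5 FPKM in MCD livers. Of 34 listed chemokines, cytokines and adhesion molecules 26 were tested, of which 14 rose by a large margin. Some, such as Ccl2, were under the minimum mean FPKM in every WT chow liver, so this count is a description too. Ccl2, which draws monocytes, went from 0.499, 0.409 and 0.235 FPKM to 17.3, 7.49 and 6.62 FPKM (2.94, SE 0.27, adjusted p = 3.9e-06). Interferon response and MHC class I genes had 14 large rises among 35, led by Isg15, from 3.84, 5.24 and 4.77 FPKM to 52.6, 47.5 and 45.1 FPKM, and Usp18 (2.90), while Stat2 (-0.13) and Mx2 (0.18) did not pass.

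Genes of fibrosis gave a mixed picture. Of 50 listed genes of stellate cells, myofibroblasts and matrix 39 were tested, of which 9 rose and none fell by a large margin. The summed level of the 50 overlapped at 397 to 532 FPKM on chow and 501 to 698 FPKM on MCD (p = 0.3, two-sided exact permutation test). Lum and Dcn, small proteoglycans of the matrix, rose by 2.63 and 2.07, and Timp1, an inhibitor of matrix proteases, by 1.49. The defining genes of activated myofibroblasts did not pass. Acta2, smooth muscle actin, was at 1.46, 0.126 and 5.75 FPKM on chow and at 2.36, 1.59 and 0.708 FPKM on MCD, and Col1a1, a chain of collagen I, at 2.76, 0.932 and 2.23 FPKM and at 3.35, 0.991 and 0.913 FPKM. For both the groups overlapped (adjusted p = 0.858 for Acta2 and 0.684 for Col1a1). Markers of other liver cells moved as well. Of 20 tested sinusoidal endothelial genes 2 rose and 2 fell by a large margin (20%, against 14.3% of all genes tested). The 21 listed ones had summed levels of 94.9 to 130 FPKM and 125 to 158 FPKM. Of 20 listed cholangiocyte genes 10 were tested, of which 5 rose and none fell at an adjusted p under 0.05, while 57.0% of all genes tested were called. By a large margin 2 of the 10 rose (20%, against 14.3% of all genes tested), Cldn4 (1.43) and Cdh1 (1.17). The ductal genes Krt19 (-0.11) and Epcam (-0.03) did not pass. The summed levels of the 20 listed genes were 27.7 to 35.5 FPKM and 43.8 to 71.9 FPKM.

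Among the zonal markers of hepatocytes, most periportal ones fell, while pericentral ones moved in both directions. The liver lobule divides its work between periportal hepatocytes, which make urea and glucose, and pericentral ones, which make glutamine and metabolize drugs. Of 16 periportal genes, 6 fell and 1 rose by a large margin (median -0.85), and they summed to 4977 to 6258 FPKM on chow against 2577 to 3068 FPKM in MCD livers. Of 19 pericentral genes, 3 rose and 2 fell by a large margin (median 0.46, range -1.49 to 2.05), with overlapping sums of 4474 to 5616 FPKM and 4305 to 6705 FPKM. The periportal enzyme Cyp2f2 went from 562, 604 and 628 FPKM to 300, 303 and 303 FPKM, and Asl, a urea cycle enzyme, fell by 1.21. Glul, the pericentral glutamine synthetase, went from 257, 276 and 207 FPKM to 601, 403 and 483 FPKM, and Cyp2e1 did not pass (-0.04, adjusted p = 0.879). The 15 general hepatocyte markers had 2 large falls, a share of 13.3% that is near the 14.3% of all genes tested. The large falls were in Serpina1a (-1.36, with 50.3% of its words shared with other genes) and Hnf4a (-1.10). At an adjusted p under 0.05, 3 rose and 6 fell, a share near the 57.0% of all genes tested. The hepatocyte markers had a median of -0.30. Their summed level was higher on MCD, at 67548 to 76423 FPKM against 51748 to 58566 FPKM. Without Alb, the summed level of the other 14 markers was 25459 to 30760 FPKM on chow and 25581 to 30087 FPKM on MCD, and the groups overlapped. Albumin made up 7.84 to 8.69% of all FPKM on MCD and 5.53 to 5.82% on chow.

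Other metabolic functions of hepatocytes fell. Of 46 urea cycle and amino acid catabolism genes, 30 fell and 3 rose at an adjusted p under 0.05. Among all genes tested 57.0% were called. By a large margin 13 of the 46 fell (28.3%, against 6.33% of all genes tested) and none rose (median -0.54). Prodh2, which breaks down hydroxyproline, was 7.48-fold lower, and Haao, of tryptophan breakdown, 4.56-fold lower. The largest falls beside these were in Afmid (-2.83), which shares 59.2% of its words with other genes, and Amdhd1 (-1.59). Of 38 genes of insulin signaling and glucose metabolism, 8 fell and 3 rose by a large margin. G6pc, the glucose-6-phosphatase that releases glucose, went from 146, 279 and 298 FPKM to 25.5, 44.7 and 23.2 FPKM (log2 fold change -2.90, SE 0.72, adjusted p = 0.00461), and Pck1, which commits carbon to gluconeogenesis, from 771, 1240 and 1776 FPKM to 388, 451 and 426 FPKM (-1.50, SE 0.43, adjusted p = 0.0099). Irs2, an adaptor of the insulin receptor, fell by 1.90. The rises were in Pkm (1.29), Ugp2 (1.27) and Ppargc1a (1.04).

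Plasma protein genes fell more often than they rose, and acute-phase genes rose more often than they fell. Of 51 complement, coagulation and other plasma protein genes, 24 fell and 9 rose at an adjusted p under 0.05. Among all genes tested 57.0% were called. By a large margin 12 of the 51 fell (23.5%, against 6.33% of all genes tested) and none rose (median -0.28). The mannose-binding lectin gene Mbl2 (-3.87) and the terminal complement genes C6 (-3.53), C8a (-2.16), C8b (-1.97) and C9 (-1.93) fell most. Of 25 acute-phase genes, 13 rose and 5 fell, 9 and 1 of them by a large margin (median 0.68). Apcs, the serum amyloid P component, was at 62.5, 87.7 and 68.9 FPKM on chow and at 2087, 3348 and 4006 FPKM on MCD (43.1-fold, log2 fold change 5.37, SE 0.21, adjusted p = 7.1e-09), and the orosomucoid gene Orm2 rose by 3.03. The groups did not overlap for either. The classical acute-phase genes Saa1 (-0.18) and Saa2 (0.32) did not pass, and Saa4 fell by 1.35.

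Transcription factors and clock genes were lower. Of 40 liver transcription factor and lipid receptor genes, 10 fell and 2 rose by a large margin (median -0.43). Cebpa, a factor that maintains the hepatocyte state, went from 768, 555 and 456 FPKM to 133, 126 and 164 FPKM (log2 fold change -2.04, SE 0.19, adjusted p = 3.7e-06), and Hnf4a, its central partner in this role, from 250, 248 and 218 FPKM to 111, 105 and 115 FPKM. Foxa1 fell by 1.96 and Foxa2 fell by 1.55. No MCD liver reached a chow liver for Cebpa or Hnf4a. Of 20 clock and output genes, 8 fell and 1 rose by a large margin (median -0.97). Dbp, a clock output factor, went from 39.5, 98.3 and 86 FPKM to 8.1, 9.09 and 16.1 FPKM, Per1 fell by 2.06 and Arntl, the positive limb of the clock, rose by 1.01. The hour at which the livers were taken is not given in the sources used here, and its part in these values was not tested.

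Drug metabolism and antioxidant genes moved in both directions. Of 62 xenobiotic enzyme and receptor genes, 16 rose and 14 fell by a large margin (median 0.03, and -0.10 after median-of-ratios scaling), the rises being led by the female-typical cytochromes and sulfotransferases and the falls by carboxylesterases, Ces3b (-4.77), Ces1e (-3.23), Ces2a (-2.41) and Ces3a (-2.23). Of 48 NRF2 and glutathione genes, 14 rose and 2 fell by a large margin (median 0.20). Srxn1, which repairs peroxiredoxins, went from 12.5, 11.2 and 12.6 FPKM to 126, 57.7 and 41 FPKM (2.37, SE 0.28, adjusted p = 2.7e-05), and the heme oxygenase gene Hmox1 from 15.7, 10.2 and 13 FPKM to 61.4, 43.5 and 40.8 FPKM. Catalase was lower, Cat falling from 1193, 1225 and 1233 FPKM to 514, 505 and 540 FPKM (-1.23, SE 0.09, adjusted p = 5.8e-07).

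Of 22 p53 target and cell death genes, 5 rose and none fell by a large margin, led by Mlkl, the effector of necroptosis (2.04), and the cell cycle inhibitor gene Cdkn1a (1.78). Of 34 listed cell cycle genes 20 were tested, of which 2 rose and 1 fell by a large margin, a share of 15% that is near the 14.3% of all genes tested. Cyclin D1 rose, with Ccnd1 going from 13.7, 7.57 and 10.1 FPKM to 117, 69.9 and 73.6 FPKM (2.93, SE 0.23, adjusted p = 1.3e-06), whereas Mki67 and Top2a, genes of dividing cells, were under the minimum mean FPKM. Of 33 lysosome and autophagy genes, 6 rose and 3 fell by a large margin, with the cathepsin genes Ctss (2.95) and Ctsl (2.35) rising most. Of 25 iron and heme genes, 5 rose and 4 fell by a large margin, the falls including Tfr2 (-2.22), a sensor of circulating iron, and Alas1 (-2.03), the first enzyme of heme synthesis.

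Ribosomal protein genes and many oxidative phosphorylation genes rose. Of 79 tested cytosolic ribosomal protein genes, 76 rose at an adjusted p under 0.05 and 36 by a large margin, and their median was 0.96, against 0.82 after median-of-ratios scaling, 0.94 after quantile normalization and 0.73 after a correction for GC content and length. Rps29 rose most, from 131, 184 and 180 FPKM to 973, 955 and 1113 FPKM (log2 fold change 2.62, SE 0.14, adjusted p = 8.9e-08), and shares 16.2% of its words with other genes. Of 82 tested subunits of oxidative phosphorylation, 58 rose and 7 fell at an adjusted p under 0.05, and 18 rose by a large margin (median 0.60, and 0.24 after the correction). Of 35 proteasome subunits, 31 rose and 1 fell, none by a large margin (median 0.44, and 0.20 after the correction). These are short transcripts, with a median annotated length of 1106 bases for the ribosomal and 1026 bases for the oxidative phosphorylation genes, against 3086 bases over all genes tested, and the share of reads mapped to several places was higher in the MCD libraries. The part of transcript length and read mapping in these shifts was not tested beyond that correction. The 13 mitochondrially encoded genes summed to 4.99 to 5.5% of all FPKM on chow and 7.59 to 8.48% on MCD.

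**Figure D4:**
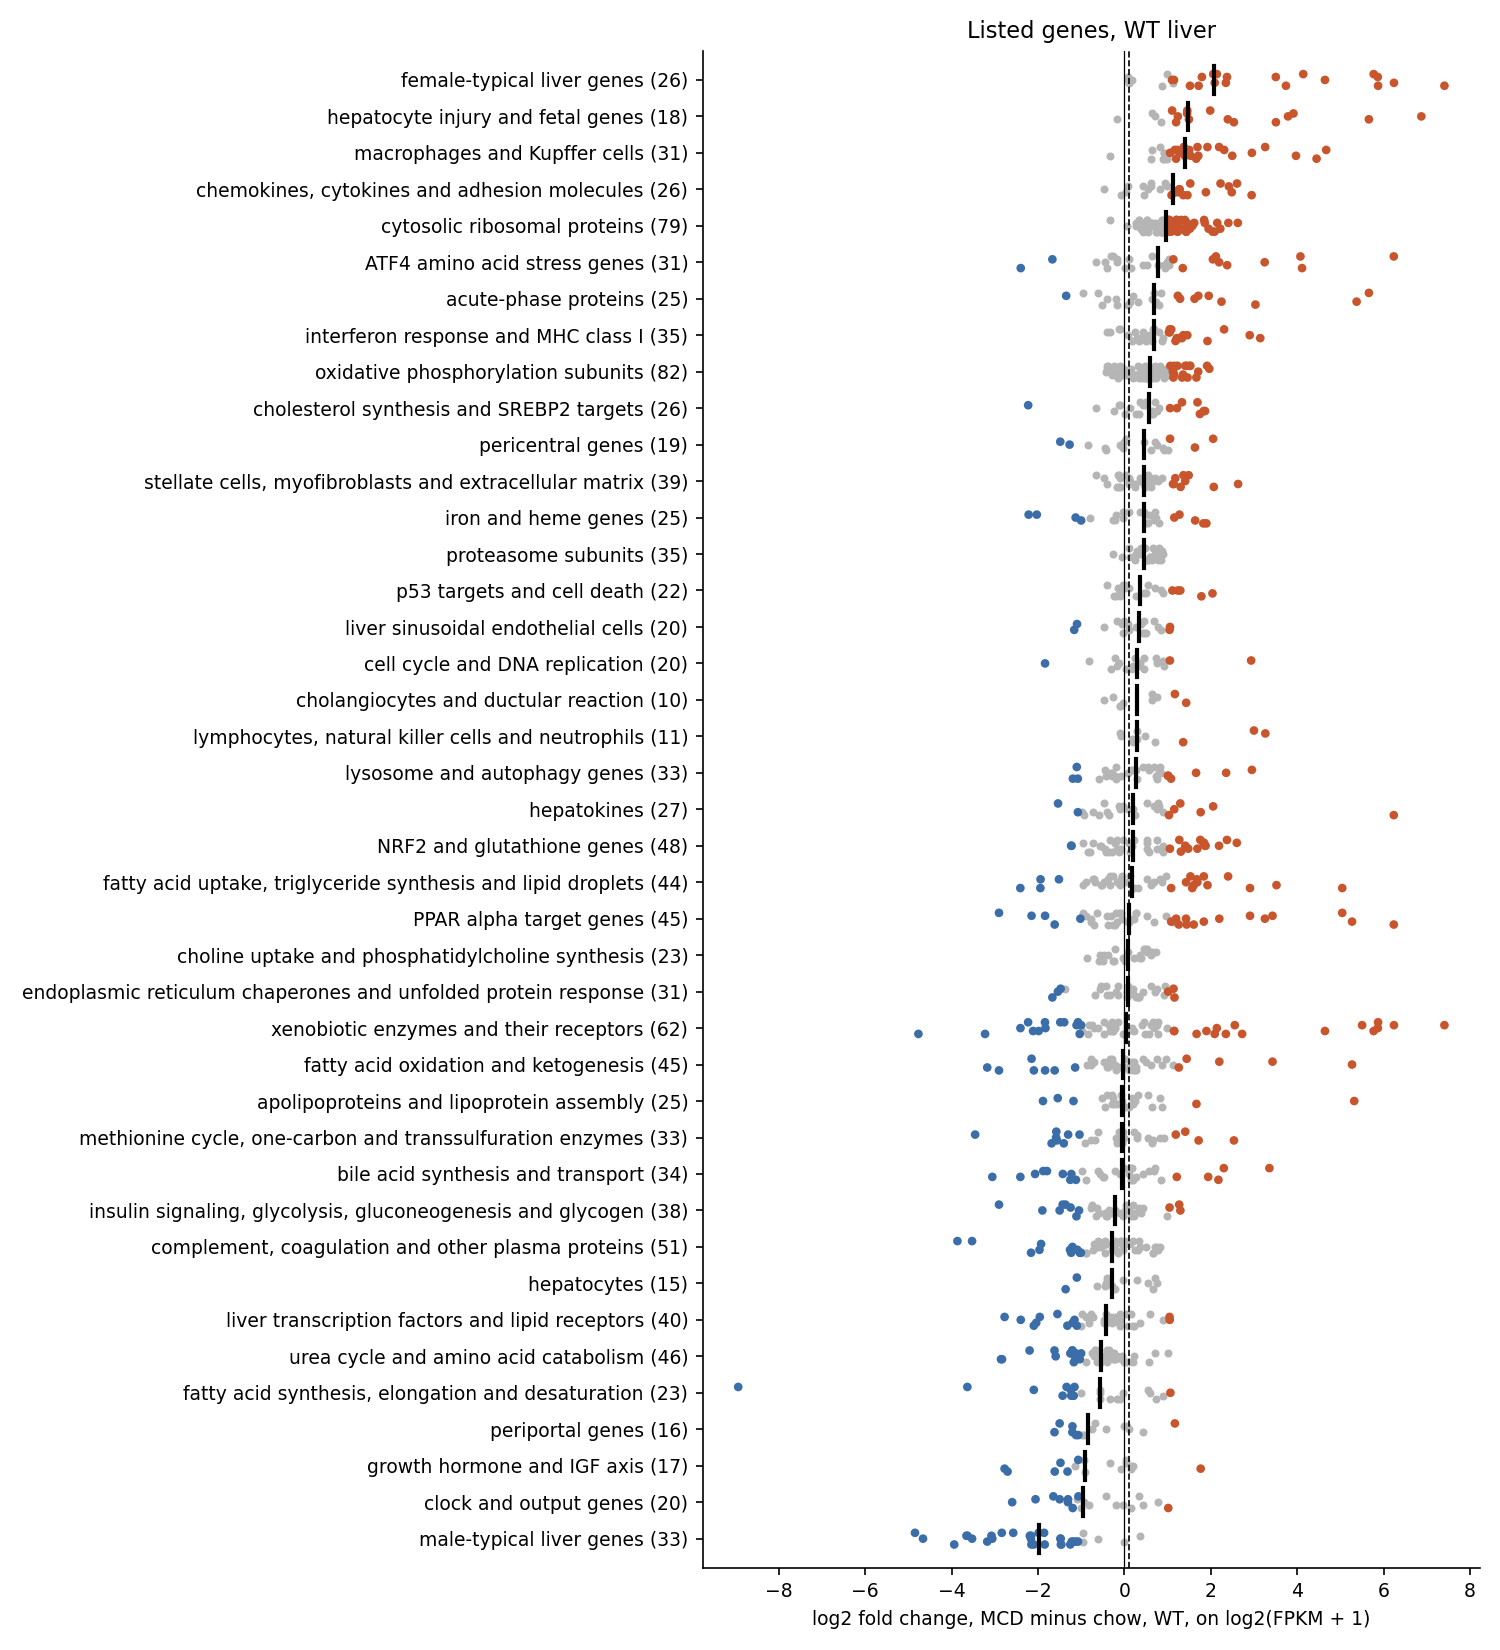
Log2 fold change (MCD minus chow, WT liver, on log2(FPKM + 1)) of every tested gene of the 41 lists, with the number tested in brackets. Orange and blue points are large rises and falls, grey points are all others, the black bar is the median of the list and the dashed line the median of 0.11 over all genes tested. Lists are ordered by the median of their tested genes, from female-typical genes at 2.07 to male-typical genes at -1.99, and genes near 0 FPKM on chow could enter the test only through the MCD livers, so the order is a description.

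The same contrast was available in 6 other mice, the Pctp-/- mice on chow and MCD. Their livers do not enter the WT fold changes, but share the estimate of spread and the link of diet with library quality. Of the 988 large rises in WT, 972 (98.4%) had the same direction in Pctp-/- livers and 492 (49.8%) were large there too. Of the 789 large falls, 775 (98.2%) had the same direction and 525 (66.5%) were large there too. The same shares over all genes tested were not computed, so these shares are descriptions only. The median of the WT rises was 1.33 in WT, whose values chose the genes, and 1.00 in Pctp-/- livers, and the medians of the WT falls were -1.34 and -1.21. Scd1 fell by 8.73 and Sult1e1 rose by 7.15 in Pctp-/- livers. A test of the difference between the diet effects called 12 genes at an adjusted p under 0.05, of which 7 were large changes in WT. Zbtb16, a transcription factor, went in WT from 19.9, 15.8 and 15.1 FPKM to 2.81, 3.28 and 4.47 FPKM (log2 fold change -1.99, SE 0.17, adjusted p = 2.4e-06), and in Pctp-/- livers had means of 3.18 FPKM on chow and 3.57 FPKM on MCD. Cyp2c55 rose in WT from 1.96, 1.61 and 2.16 FPKM to 6.97, 9.37 and 8.51 FPKM, against means of 2.12 and 2.33 FPKM in Pctp-/- livers.

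**Figure D5:**
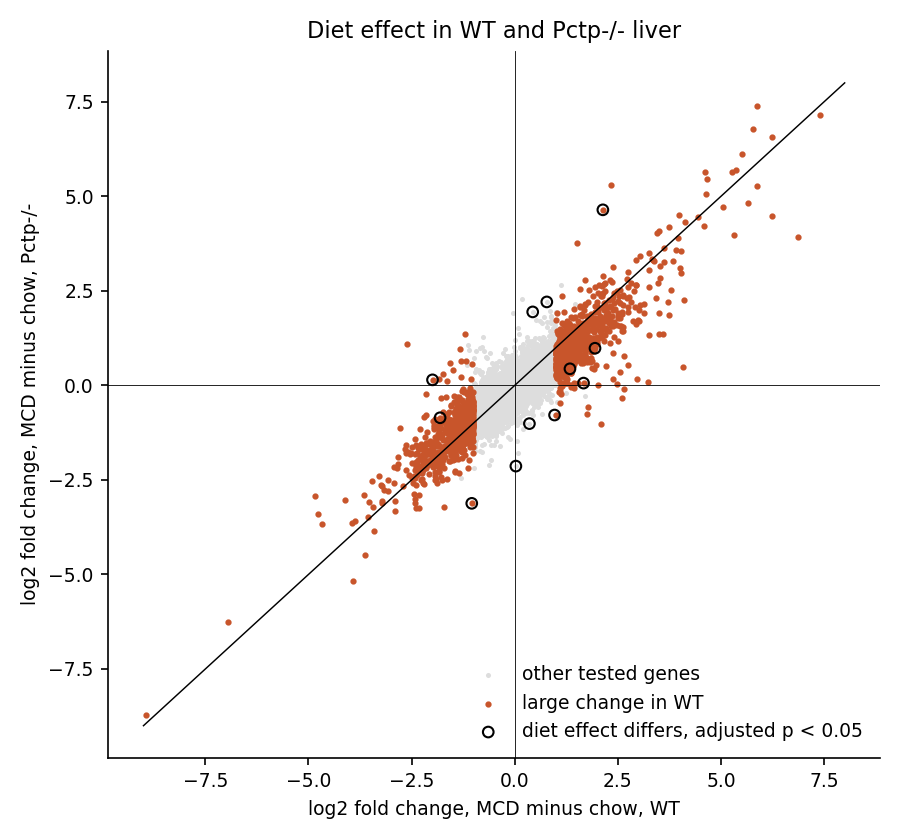
Log2 fold change (MCD minus chow, on log2(FPKM + 1)) in WT liver (x) against Pctp-/- liver (y) for all 12466 tested genes, with the line of equal change. Orange points are the 1777 large changes in WT, of which 98.3% have the same direction in both, and open circles are the 12 genes whose diet effect differed between the genotypes at an adjusted p under 0.05.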

How the data were processed

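RNA was measured in 12 whole livers, 3 mice in each of 4 groups (WT or Pctp-/-, chow or MCD). The deposited values are FPKM per gene, made by the authors on mouse genome build mm10 per the submitters' processing notes, with aligner, counter and annotation not given in the sources used here. The deposited quality tables hold counts of reads and percent values for each library. Groups came from the titles in the labels. The labels name separate mice.

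Symbols, coordinates, GC content and lengths came from GENCODE M21, which held 34490 of the 35275 identifiers, and 12879 genes were at 0 in every library. Genes whose FPKM averaged 0.5 or more across the 12 libraries were fitted with limma 3.58.1 in R 4.3.3 on log2(FPKM + 1). The fit held all 12 libraries, with 1 mean per group, 1 estimate of spread shared by the groups and a mean-variance trend. P-values were adjusted by Benjamini-Hochberg over the 12466 genes tested. A gene was called at an adjusted p under 0.05, and its change was large at an absolute log2 fold change of at least 1. FPKM carry no counts per gene, so no count test was run. The words used to find near-identical copies were 100 bases long. Summed levels and quality measures were compared by two-sided exact permutation tests (scipy 1.17.1). Promoters are those of RefSeq on GRCm38.p6.

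The rule for named genes was the 12 largest rises and falls among large changes with groups that do not overlap, up to 4 rises and falls in each of 41 gene lists, members that define a list and did not pass, Pctp, and genes whose diet effect differed between genotypes. Any other gene was named with its values already in view. The members and lists were chosen with earlier results of these data known. Of the listed symbols, 3 were not matched. Results of some genes are not reported here. Alternatives were other pseudocounts, filters, scalings, fits and fold minimums, leaving out each WT library, and a correction for GC content and length. In simulated data with 200 of 12466 genes changed between WT chow and WT MCD, 20.0% were called at a log2 change of 0.5, 84.0% at 1 (47.0% as large changes) and 97.5% at 2. Of the calls at 0.5, 1 and 2, 2.44%, 4.00% and 7.58% were genes not changed. In the data 57.0% of the genes tested were called, far more than were changed here, so these shares are not the sensitivity of this contrast. The simulation held no difference in library quality or GC content between the diets. Replicate numbers mark different mice, so the numbers were not taken as pairs. Chow and MCD livers with the same number had correlations of deviations of 0.199, 0.184 and 0.0409. Those with different numbers had -0.21 to 0.102. What lies behind this was not tested, and a fit with the replicate number as a block is given among the alternatives.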

Additional observations from a re-analysis of the deposited data

Results flagged for a closer look

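The diet effect differed between the genotypes in 12 genes at an adjusted p under 0.05 (limma, interaction term, 3 mice per group). The values are differences of log2 fold changes, Pctp-/- minus WT. The difference was positive for Zbtb16 (2.14), Rian (1.43), Meg3 (1.51) and Mug1 (0.95). Rian and Meg3 are noncoding genes of one imprinted cluster, and both rose in WT, by 0.78 and 0.44. Mug1, a plasma protease inhibitor, fell by 1.81 in WT. Cyp3a41a (2.51) shares 90.9% of its 100-base words with other genes and was listed at 0 in every chow liver of both genotypes, so its level on MCD is all that is measured, at 4.97, 2.13 and 3.56 FPKM in WT and a mean of 24.7 FPKM in Pctp-/- mice.

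The difference was negative for Bcl6 (-2.16), Csad (-2.08), Fam25c (-1.75), Cyp2c55 (-1.61), Ddc (-1.37), Htatip2 (-0.96) and Gm49342 (-0.90). Bcl6, a transcriptional repressor, had means of 19.4 FPKM on chow and 3.56 FPKM on MCD in Pctp-/- livers, and was at 4.95, 3.15 and 5.54 FPKM on chow and at 4.54, 5.9 and 3.49 FPKM on MCD in WT. Csad, an enzyme of taurine synthesis, was at 166, 119 and 158 FPKM on chow and at 62.3, 94.9 and 59.2 FPKM on MCD in WT, and had means of 140 and 15.3 FPKM in Pctp-/- livers. For Bcl6 and Zbtb16 the chow groups of the genotypes differed in mean as well, at 4.55 and 16.9 FPKM in WT against 19.4 and 3.18 FPKM in Pctp-/- livers.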

How the results depend on the processing

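The number of large changes, 1777, was 2791 with a pseudocount of 0.1, 783 with one of 5 and 1164 among genes averaging 5 FPKM or more. It was 466 by limma's treat test against a log2 fold change of 1 and 303 at a minimum of 2. After the correction for GC content and length it was 1413, 702 up and 711 down, with 6380 calls among 12401 genes. Calls among the genes averaging 5 FPKM or more numbered 4448, fewer genes being tested. Leaving out each WT library gave 6171 to 6846 calls, 1615 to 1888 large changes and 379 to 416 large changes among listed genes, against 7110, 1777 and 407. With the replicate block there were 7202 calls, 1781 large changes and 410 among listed genes. With only the 6 WT libraries in the fit these were 6822, 1784 and 407.
Of the called genes named with a value, none turned its direction in an alternative. Sign turned in genes that did not pass, given as log2 fold changes. After the GC content and length correction, Aars (0.29), Col1a1 (0.50), Krt19 (0.01), Mup14 (-0.17), Pparg (-0.03). With a pseudocount of 0.1, Acta2 (0.23). After quantile normalization, Bcl6 (-0.06), Mat1a (0.23). After median-of-ratios scaling, Bcl6 (-0.08). With a pseudocount of 5, Mup2 (0.00). With each WT library left out, the ranges over both signs were Acta2 -0.73 to 0.56, Bcl6 -0.17 to 0.18, Col1a1 -0.55 to 0.04, Cth -0.16 to 0.16, Cyp2e1 -0.26 to 0.24, Epcam -0.14 to 0.05, Gdf15 -0.93 to 0.14, Krt19 -0.19 to 0.04, Mat1a -0.16 to 0.11, Mttp -0.14 to 0.02, Mup2 -0.18 to 0.28, Saa1 -0.62 to 0.10, Saa2 -0.06 to 0.54. Aars passed after the correction for GC content and length (adjusted p = 0.0217) with the opposite sign to its value of -0.31 after median-of-ratios scaling (adjusted p = 0.0127). The calls of Fasn, Cept1 and Igfbp1 were lost after that correction. That of Alb was lost after quantile normalization (0.00), which sets the top genes of each library equal, and with no filter on low values (0.66, adjusted p = 0.374), where those of Igfbp1 and Clec4f were lost too. The causes of the other differences were not tested.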
